A study of Oryctolagus cuniculus with 6 samples.

Results

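The expression of 10 inducible messengers of inflammation was examined: the chemokines CXCL8, CXCL10, CXCL12, CCL2, CCL5 and CCL20, the cytokines IL6, LIF and CSF1, and PTGS2, the inducible cyclooxygenase. They were chosen by gene symbol as genes that IL-1 can induce, and all 10 had a row among the 22190 genes of the deposited count table. Primary limbal stem cells (LSCs), the epithelial progenitors of the corneal rim, were grown from rabbit limbal explants, and RNA-seq was performed on 3 fresh and 3 preconditioned libraries. The fresh group came from corneas that were neither frozen nor given IL-1β. The preconditioned group came from corneas kept in liquid nitrogen for 7 days in freezing medium with 10 ng/mL IL-1β, then thawed and cultured as explants. Freezing and IL-1β were applied together, so their parts cannot be told apart, and the libraries were made from the outgrown cells after culture and not from the treated tissue. Nothing in the sources used here states which animal each library came from, so p values measure only the spread between these libraries.

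Chemokines are small secreted proteins that guide leukocytes through receptors on their surface, and epithelial cells release them when IL-1 or injury activates NF-κB. In the cornea, CXCL8 draws neutrophils, CCL2 draws monocytes, and CXCL10 is released in response to interferon. IL6 and LIF share the receptor subunit IL6ST, CSF1 keeps macrophages alive, and PTGS2 makes the precursor of the prostaglandins. Such transcripts are often short-lived, because proteins such as those encoded by ZFP36 and ZC3H12A mark them for decay.

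The 6 libraries held 31952352 to 34327534 counts on genes, and levels are given as CPM, the count scaled to a common library total with edgeR's TMM factors. A count of 3 in a library, taken as the limit of detection, corresponded to 0.0820 to 0.0988 CPM. The label was checked with marker genes. KRT5, an epithelial keratin, was at 7337 to 11740 CPM and PAX6, a corneal transcription factor, at 174 to 459 CPM in every library, and KRT3, a keratin of differentiated corneal epithelium, at 239 to 2655 CPM. KRT15, a keratin of limbal basal cells, was at only 0.988 to 9.71 CPM and KRT24 had at most 4 counts, whereas KRT12 and KRT14 had no row under these symbols. Markers of conjunctival epithelium were also present, with KRT19 at 1401 to 3870 CPM, KRT7 at 388 to 1200 CPM and MUC4 at 114 to 2055 CPM, and KRT4 and KRT13 were highest in preconditioned replicate 1 (44.2 and 61.1 CPM). Of 14 leukocyte markers, CD3E had at most 1 count in every library and PTPRC at most 1.5 CPM, whereas LCP1 and CD68 were at 531 to 891 CPM and 93.4 to 300 CPM. All 13 tested leukocyte markers had a positive log2 fold change (median 0.64), but none was called by edgeR, against 2.29% of all tested genes. The groups were separate for 1 of them, against 36.7% of all tested genes. CD14, CD163, TYROBP and FCER1G were highest in preconditioned replicate 2, at 4.67 to 11.4 CPM. The summed level of 15 stromal fibroblast markers was 932 to 2122 CPM (fresh) against 2201 to 4244 CPM (preconditioned). FN1 (373 to 1812 CPM) and VIM (239.6 to 735 CPM) were large terms in both groups. COL1A1, at 56.8 to 109 CPM in the fresh libraries, had 505 to 693 CPM in the preconditioned libraries. Its preconditioned mean, 578 CPM, was above the 479 CPM of VIM. Of the 15, COL1A1 alone was called by edgeR (log2 fold change 2.66), against 2.29% of all tested genes. A positive log2 fold change was found for 11 and a negative one for 4 (DCN, KERA, PDGFRB and THY1). The groups were separate for 3 of the 15, against 36.7% of all tested genes. The sum of the leukocyte markers, 673 to 762 CPM (fresh) and 733 to 1192 CPM (preconditioned), was mostly LCP1 and CD68. The part of such cells in the results was not tested. In bulk libraries, fewer cells of a type and less RNA per cell cannot be told apart.

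None of the 10 genes passed the test for a difference between the groups. Of the 8 with enough counts to be tested (edgeR filterByExpr), 4 had a positive and 4 a negative log2 fold change (CCL5 and CSF1 turned negative when library size alone was used for scaling), and none reached an adjusted p of 0.05 in edgeR's quasi-likelihood test, where the lowest adjusted p was 0.15. A gene was called when its adjusted p reached 0.05 and its level differed by 2-fold or more, and 344 of the 15029 tested genes (2.29%) were called, 1.08% higher and 1.20% lower. Without the fold cutoff, none of the 8 and 5.08% of all tested genes passed. The groups overlapped for all 10 genes, whereas they were separate for 36.7% of all tested genes (17.9% higher, 18.8% lower). At an unadjusted p under 0.05, 1 of the 8 genes (CCL2) was counted, against 30.6% of all tested genes (15.1% with a lower level). With DESeq2's Wald test, CCL2 was the single gene of the 10 to pass both cutoffs, and 7.78% of the genes with an adjusted p passed. The median log2 fold change of the 8 genes was 0.0016, close to the 0.0071 of all tested genes, and covered values from −2.12 to 0.70.

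**Figure D1:**
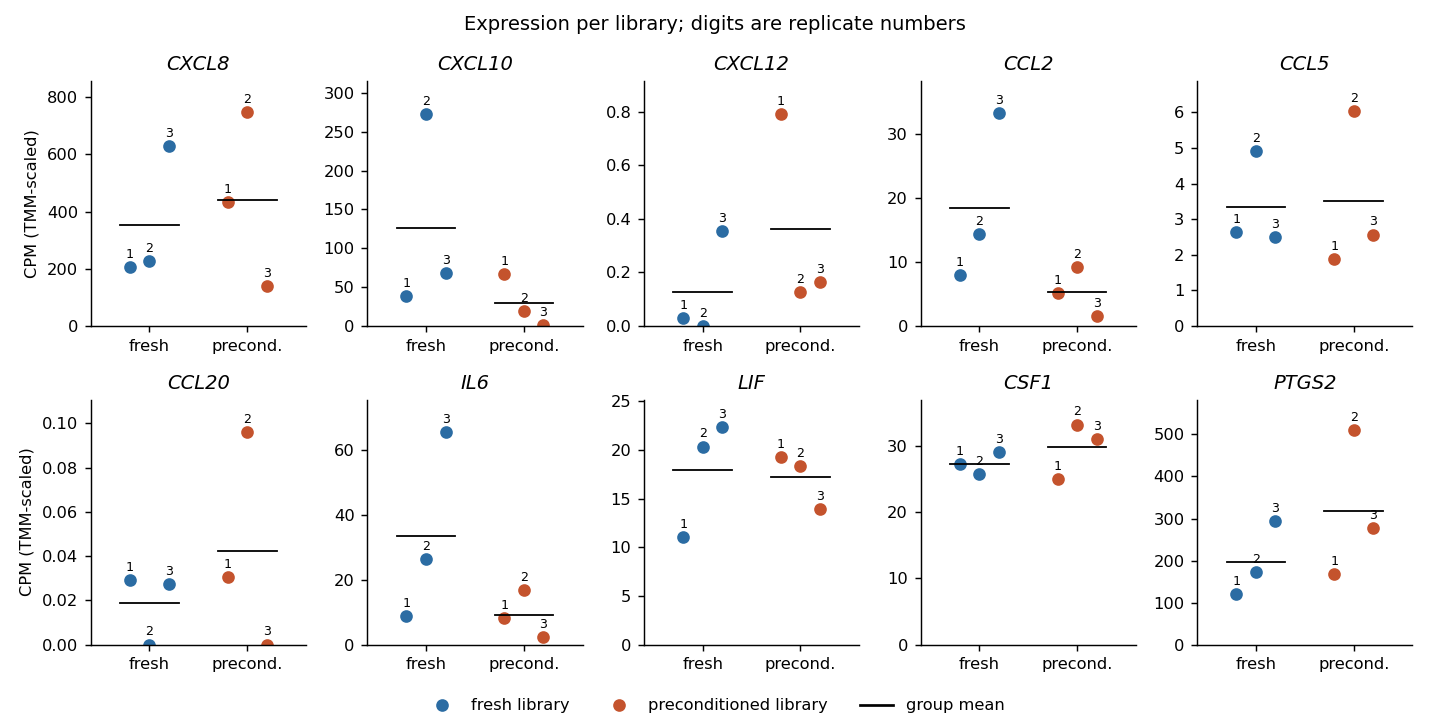
Expression of the 10 genes in TMM-scaled CPM (vertical axes, linear, from 0) in the 3 fresh and 3 preconditioned libraries, with replicate numbers beside the points and bars at the group means. The groups overlap in all 10 panels, and fresh replicate 3 holds the highest IL6 and CCL2 values (65.6 and 33.2 CPM).

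Per length, CXCL8 had the highest mean level of the 10 transcripts in both groups, although CXCL10 was above it in fresh replicate 2 (259.7 against 162 FPKM). Its deposited FPKM averaged 251 ± 169 (SD, n = 3) in the fresh group and 274 ± 184 (SD, n = 3) in the preconditioned group, which placed it at rank 286 and 284 of 22190 genes. In the fresh group it was followed by CXCL10 at 121 ± 121 FPKM and PTGS2 at 62.9 ± 29.0 FPKM (SD, n = 3 each), and the spread of CXCL10 reached across both neighbours in this order. CCL2, IL6 and LIF lay together at 32.4, 31.8 and 31.2 FPKM in the fresh group and did not differ beyond their spread. CSF1 at 7.40 FPKM and CCL5 at 3.78 FPKM came next, and CXCL12 and CCL20 were at 0.0301 and 0.00672 FPKM. In the preconditioned group PTGS2 (89.8 ± 47.0 FPKM) came after CXCL8, and CCL2 and IL6, at 8.08 and 7.49 FPKM, lay beside CSF1 at 7.15 FPKM. CXCL8 made up 28.2% to 57.5% of the summed FPKM of the 10 genes in the fresh libraries and 43.0% to 66.9% in the preconditioned libraries, and PTGS2 made up 9.61% to 14.2% and 11.1% to 38.8%.

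Among the chemokines, CXCL8 (NCBI gene 100009129), the ligand of CXCR1 and CXCR2, had 206, 229 and 628 CPM in fresh replicates 1 to 3. It had 433, 748 and 139 CPM in preconditioned replicates 1 to 3. The highest and the lowest library were both in the preconditioned group, so that the fresh values lay within the preconditioned range. The log2 fold change was 0.31 ± 0.66 (SE, edgeR adjusted p = 0.78), and its 95% confidence interval ran from a 2.41-fold decrease to a 3.71-fold increase.

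CCL2 (NCBI gene 100009130), the main attractant of monocytes, had 8.0, 14.3 and 33.2 CPM in the fresh libraries. In the preconditioned libraries it had 5.11, 9.15 and 1.51 CPM. Preconditioned replicates 1 and 3 were below every fresh library, and preconditioned replicate 2 was above fresh replicate 1 alone. The log2 fold change was −1.81 ± 0.73 (SE, edgeR adjusted p = 0.15, confidence interval −3.56 to −0.07), and DESeq2 gave −1.81 with an adjusted p of 0.025. Fresh replicate 3 carried much of this difference, since the log2 fold change without it was −1.09 (adjusted p = 0.38), whereas without preconditioned replicate 2 it was −2.48.

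CXCL10 (NCBI gene 100353112), a ligand of CXCR3, varied most. It had 39.2, 273 and 68.0 CPM in the fresh libraries and 67.2, 18.9 and 1.02 CPM in the preconditioned libraries. Preconditioned replicate 1 was within the fresh range, whereas replicates 2 and 3 were below it. The log2 fold change was −2.12 ± 1.29 (SE, edgeR adjusted p = 0.30), and without fresh replicate 2, the highest library, it was −0.88 (adjusted p = 0.71). Without preconditioned replicate 1 it was −3.68 (adjusted p = 0.15).

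CCL5 (NCBI gene 100348266), which draws T cells and monocytes, was low, at 2.64, 4.92 and 2.49 CPM in the fresh libraries and 1.89, 6.04 and 2.57 CPM in the preconditioned libraries. Its log2 fold change of 0.06 ± 0.51 (SE, edgeR adjusted p = 0.95) had no stable sign. CXCL12 (NCBI gene 103345545), the ligand of CXCR4, did not pass the filter, with 1, 0 and 13 counts in the fresh libraries and 26, 4 and 5 counts in the preconditioned libraries. CCL20 (NCBI gene 103348897), the ligand of CCR6, was not detectable at this depth, with 1, 0 and 1 counts in the fresh libraries and 1, 3 and 0 counts in the preconditioned libraries.

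Among the cytokines, IL6 (NCBI gene 100008733) had 8.84, 26.3 and 65.6 CPM in the fresh libraries. It had 8.06, 16.7 and 2.34 CPM in the preconditioned libraries. The order of the libraries within each group was the same as for CCL2, and again preconditioned replicate 2 was above fresh replicate 1. The log2 fold change was −1.89 ± 0.88 (SE, edgeR adjusted p = 0.20, confidence interval −3.99 to 0.20), and without fresh replicate 3 it was −0.96 (adjusted p = 0.50), whereas without preconditioned replicate 2 it was −2.69.

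LIF (NCBI gene 100358914), a cytokine of the IL6 family, had 11.1, 20.4 and 22.3 CPM in the fresh libraries and 19.3, 18.4 and 14.0 CPM in the preconditioned libraries. The preconditioned values lay within the fresh range, with a log2 fold change of −0.06 ± 0.28 (SE, edgeR adjusted p = 0.91). CSF1 (NCBI gene 100338577) varied least of the 8 tested genes, at 27.2, 25.7 and 29.0 CPM in the fresh libraries and 25, 33.2 and 31 CPM in the preconditioned libraries. Its log2 fold change was 0.12 ± 0.15 (SE, edgeR adjusted p = 0.60), and the 95% confidence interval ran from a 1.16-fold decrease to a 1.38-fold increase, so that a change of 2-fold lay outside it. For LIF the interval ran from a 1.64-fold decrease to a 1.51-fold increase.

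PTGS2 (NCBI gene 100009248) had 121, 172 and 295 CPM in the fresh libraries. It had 167, 511 and 276 CPM in the preconditioned libraries. One preconditioned library exceeded all fresh libraries and the others lay among them, with a log2 fold change of 0.70 ± 0.47 (SE, edgeR adjusted p = 0.35). The interval ran from a 1.34-fold decrease to a 3.53-fold increase. Its log2 fold change was positive under all 14 alternatives run, but ranged from 0.18 without preconditioned replicate 2 to 1.12 without fresh replicate 3.

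**Figure D2:**
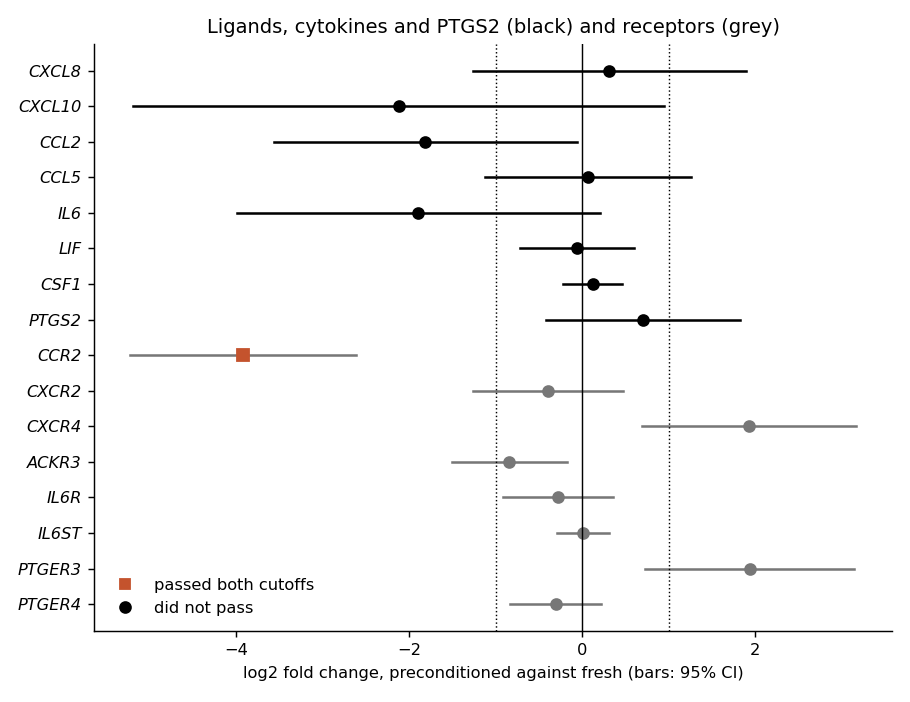
Log2 fold change of the preconditioned against the fresh group (horizontal axis) with 95% confidence intervals, 3 libraries per group, dotted lines at −1 and 1. Black, the 8 tested genes of the group. Grey, 8 of the tested receptor genes, those with values in the text except CSF1R, which is given there as a leukocyte marker. CCR2, at −3.92, is the single gene shown that is past both cutoffs, and CXCL10 has the widest interval of the black genes, from −5.19 to 0.94.

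The genes differed widely in their spread between libraries of one group. CXCL10 differed 6.96-fold between the highest and the lowest fresh library and 65.8-fold between the preconditioned libraries, and its biological coefficient of variation in the edgeR fit, 0.986, was at or above that of 99.6% of all tested genes. IL6 followed at 0.699 (97.2%), CCL2 at 0.600 (94.7%) and CXCL8 at 0.554 (92.9%). LIF, at 0.270 (58.0%), and CSF1, at 0.168 (23.4%), were ordinary by this measure. The libraries were also ordered alike for many of the genes. Of the 8 tested genes, 6 were highest of the fresh group in replicate 3 and 6 were lowest of it in replicate 1. In the preconditioned group, 6 were highest in replicate 2 and 5 were lowest in replicate 3. Over these libraries, the profile of IL6 lay nearest to that of CCL2 among 11865 tested genes with a symbol, with a root mean square difference of 0.28 on the log2 CPM scale, where the median gene differed from IL6 by 1.5. For CCL2, DIO3 (0.26) and IL6 were nearest. IFIT3 and USP18, both induced by interferon, were nearest to CXCL10 (0.49 each, against a median of 2.47).

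Because several genes shared the order of the libraries, their ratios within a library were compared on the FPKM scale. These ratios were chosen after the values of the genes had been seen. IL6 per CXCL8 was 0.0573, 0.153 and 0.140 in the fresh libraries and 0.0249, 0.0298 and 0.0225 in the preconditioned libraries. CCL2 per CXCL8 was 0.0960, 0.155 and 0.131 in the fresh libraries and 0.0292, 0.0302 and 0.0270 in the preconditioned libraries. All preconditioned libraries were below all fresh libraries in both ratios, although the groups overlapped for each of the 3 genes alone. The mean log2 difference was −2.07 for IL6 per CXCL8 and −2.12 for CCL2 per CXCL8, with an exact, 2-sided permutation p of 0.1 each, the smallest that 3 libraries against 3 allow (adjusted p = 0.3 over 6 ratios). The 2 ratios share CXCL8, IL6 and CCL2 had similar profiles, and 2 separated ratios of 6 are no more than the 36.7% of single tested genes that were separate. IL6 per CCL2 was 0.597 to 1.07 in the fresh libraries and 0.834 to 0.987 in the preconditioned libraries, with a log2 difference of 0.05 (exact permutation p = 1). PTGS2 per CXCL8 and CXCL10 per CXCL8 overlapped between the groups (exact permutation p = 0.8 and 0.2), and so did LIF per CSF1 (exact permutation p = 0.9).

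**Figure D3:**
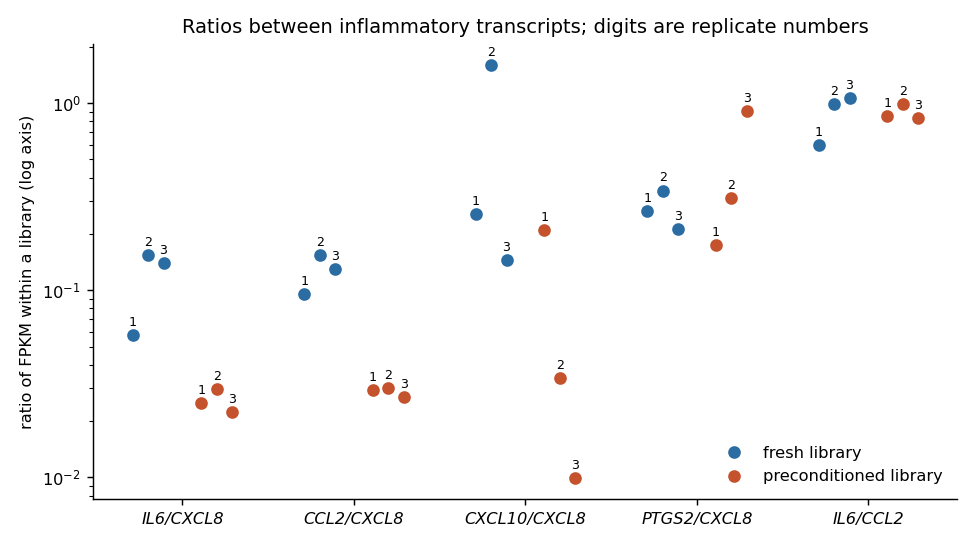
Ratios of FPKM between pairs of transcripts within each library (vertical axis, log scale) for 3 fresh and 3 preconditioned libraries, with replicate numbers beside the points. The preconditioned libraries lie at 0.0225 to 0.0302 in the first 2 ratios, below all fresh libraries, and among the fresh libraries for IL6/CCL2.

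The level of CXCL10 followed that of other interferon-induced genes across the libraries. Of 19 such genes in the table, 17 were highest in fresh replicate 2 and all 19 were lowest in preconditioned replicate 3, as CXCL10 was. Their summed level was 2963, 7480 and 3659 CPM in the fresh libraries and 3358, 1114 and 257 CPM in the preconditioned libraries. All 19 had a negative log2 fold change, with a median of −1.53, but none passed the cutoffs in edgeR's quasi-likelihood test. There 2 had an unadjusted p under 0.05, against 30.6% of all tested genes (15.1% with a lower level). DESeq2 called 2, against 7.78%. The groups were separate for 8 of the 19, all lower, against 36.7% of all tested genes in both directions and 18.8% lower. OASL, an antiviral protein, gave a log2 fold change of −1.91 (adjusted p = 0.25) and IFIT3 one of −1.34 (adjusted p = 0.48). CXCL11, the other CXCR3 ligand with enough counts, had 3.94, 28.8 and 5.77 CPM in the fresh libraries. It had 8.34, 11.4 and 0.132 CPM in the preconditioned libraries (log2 fold change −0.96, edgeR adjusted p = 0.64). Unlike CXCL10, CXCL11 was thus higher in preconditioned replicate 2 than in fresh replicates 1 and 3.

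**Figure D4:**
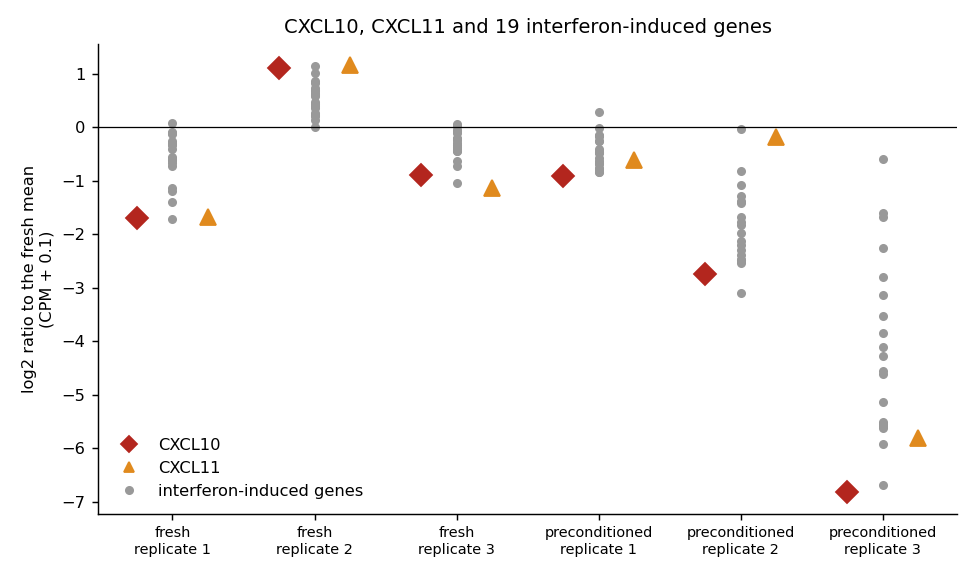
Log2 ratio of CPM (plus 0.1) to the fresh mean (vertical axis) in each library for CXCL10 (diamonds), CXCL11 (triangles) and 19 interferon-induced genes (grey points). The points lie highest in fresh replicate 2 and spread furthest down in preconditioned replicate 3, where all 19 grey genes and both chemokines have their lowest value.

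Most chemokine receptors are carried by leukocytes, whereas IL6ST and the prostaglandin receptors are found on many cell types. Of 19 receptor genes of these ligands, 13 passed the filter, and the groups were separate for 4 of them, against 36.7% of all tested genes. One of them, CCR2, the receptor of CCL2, fell, a count to be read against the 2.29% of all tested genes called. It had 47, 42 and 35 counts in the fresh libraries and 4, 2 and 1 counts in the preconditioned libraries, with no overlap, and a log2 fold change of −3.92 ± 0.56 (SE, edgeR adjusted p = 0.031). In the preconditioned group CCR2 was thus near the limit of 3 counts. The part of leukocytes in this difference was not tested, and their markers differed between the preconditioned libraries. FCER1G, CD163 and CSF1R were below every fresh library in replicate 1 (0.365, 0.152 and 0.669 CPM). They were above every fresh library in replicate 2 (5.28, 4.67 and 4.73 CPM). CD14, ITGAM, ITGAX and CORO1A were also below every fresh library in preconditioned replicate 1. In that replicate CD74 was above every fresh library (1.16 CPM), and PTPRC, CD68, AIF1, TYROBP and LCP1 lay among the fresh libraries. CXCR4, the receptor of CXCL12, had a mean of 0.906 ± 0.297 (fresh) against 3.46 ± 2.20 CPM (preconditioned, SD, n = 3), without overlap (log2 fold change 1.93, adjusted p = 0.069 in edgeR and 0.0041 in DESeq2, where it was called), while ACKR3, the scavenging receptor of CXCL12, had 22.1 ± 3.92 and 12.3 ± 4.68 CPM (SD, n = 3 each), also without overlap (log2 fold change −0.84, adjusted p = 0.10). IL6ST, the subunit shared by IL6 and LIF, had a mean of 250 ± 18.2 (fresh) against 251 ± 30.8 CPM (preconditioned, SD, n = 3). IL6R (log2 fold change −0.28, adjusted p = 0.50) and PTGER4, a receptor of prostaglandin E2 (log2 fold change −0.31, adjusted p = 0.38), did not pass the test. CXCR2 had 74 to 211 counts in every library, whereas CXCR3 and CCR6 did not pass the filter. PTGER3, another receptor of prostaglandin E2, had 4, 4 and 5 counts in the fresh libraries and 13, 21 and 11 counts in the preconditioned libraries, without overlap (log2 fold change 1.94, adjusted p = 0.065 in edgeR and 0.067 in DESeq2). CXCR2, CXCR3, CXCR4, CCR6 and PTGER3 were named after their values were seen. The call of CCR2 was lost with log2(FPKM + 1) and with the replicate number as a block (edgeR adjusted p = 0.076). It was also lost in 5 of the 6 fits that left out 1 library, with an adjusted p of up to 0.13. The log2 fold change of those 6 fits stayed between −4.49 and −3.59. The call held without preconditioned replicate 1, and CXCR4 was also called in that fit (edgeR adjusted p = 0.038).

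Among 30 further chemokine ligands listed, 17 had a row under their symbol and 9 passed the filter. CCL27, a chemokine of skin keratinocytes, rose. It had 1.22, 0.956 and 1.31 CPM in the fresh libraries and 2.59, 9.34 and 5.50 CPM in the preconditioned libraries, with no overlap (log2 fold change 2.32 ± 0.49 (SE), adjusted p = 0.046). This call too was lost with log2(FPKM + 1), with the replicate number as a block (edgeR adjusted p = 0.11) and in 5 of 6 fits without 1 library. Those 6 fits gave an adjusted p of up to 0.16 and log2 fold changes of 1.80 to 2.66. The call held without preconditioned replicate 1. CX3CL1, a membrane-bound chemokine, had a mean of 14.6 ± 8.09 (fresh) against 4.36 ± 1.27 CPM (preconditioned, SD, n = 3), also without overlap (log2 fold change −1.74, adjusted p = 0.060 in edgeR). It was called by DESeq2 (adjusted p = 0.0012) and with library size alone. CXCL16 (log2 fold change −0.16, adjusted p = 0.54) and CCL7, another attractant of monocytes (log2 fold change −0.44, adjusted p = 0.61), did not pass. CCL7 was called without preconditioned replicate 1, its highest library at 106 CPM (log2 fold change −1.41, edgeR adjusted p = 0.0088). Counted by descriptions that name a chemokine or interleukin-8, so that some rows without a chemokine symbol were included, 33 rows were chemokine ligands. Of these, 17 were tested and 1 was called by edgeR, against 2.29% of all tested genes. Rows described otherwise, such as PPBP and LOC100354804, were not counted. DESeq2 called 5 of 19 with an adjusted p (CCL2, CCL27, CX3CL1, LOC103351517 and LOC127483196), against 7.78%.

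Of 28 further cytokines listed, 16 were tested and none passed both cutoffs in edgeR, against 2.29% of all tested genes. DESeq2 called 1 of 15 with an adjusted p, against 7.78%. It was IL36G, an epithelial cytokine of the IL-1 family (log2 fold change −2.50, adjusted p = 0.027, against 0.083 in edgeR). Both FPKM fits and the edgeR fit without preconditioned replicate 1 also called IL36G. That edgeR fit called TNFSF10 too, named after its value was seen. With all libraries TNFSF10 had a log2 fold change of −1.92 (edgeR adjusted p = 0.23). IL1A, the IL-1 form stored in epithelial cells, had a mean of 792 ± 186 (fresh) against 978 ± 187 CPM (preconditioned, SD, n = 3, log2 fold change 0.31, adjusted p = 0.36). Its antagonist IL1RN had 899 ± 152 and 758 ± 237 CPM (SD, n = 3 each, log2 fold change −0.25, adjusted p = 0.51), and CSF3, a growth factor of neutrophils, had 272 ± 104 and 240 ± 139 CPM (SD, n = 3 each, adjusted p = 0.83). MIF and IL18 had an adjusted p under the cutoff with smaller fold changes. MIF rose from 239 ± 21.9 to 369 ± 36.7 CPM (SD, n = 3 each, log2 fold change 0.63, adjusted p = 0.042), and IL18, named after its value was seen, rose from 121 ± 10.4 to 190 ± 17.1 CPM (SD, n = 3 each, log2 fold change 0.64, adjusted p = 0.039).

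Of 14 prostaglandin enzymes and transporters around PTGS2, 11 were tested and none was called by edgeR, against 2.29% of all tested genes. PTGDS, which makes prostaglandin D2, did not pass edgeR's filter. It had 176, 8 and 127 counts in the fresh libraries and 7, 2 and 3 counts in the preconditioned libraries. DESeq2 called PTGDS, with a log2 fold change of −4.54 (adjusted p = 1.5e-04), while edgeR without a filter gave an adjusted p of 0.072. It was the 1 gene DESeq2 called of 12 with an adjusted p, against 7.78% of all genes. PTGES, which makes prostaglandin E2, had 70.0 ± 11.4 and 85.5 ± 13.7 CPM (SD, n = 3 each, log2 fold change 0.29, adjusted p = 0.28). PLA2G4A, which frees the substrate of PTGS2, gave a log2 fold change of −0.82 (adjusted p = 0.22), PTGES2 one of 0.09 (adjusted p = 0.63), and PTGR1, which inactivates prostaglandins, one of 0.73 (adjusted p = 0.055).

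Of 32 genes of IL-1 and NF-κB signalling that were tested, 1, NFKB1, passed both cutoffs and fell, a share near the 2.29% of all tested genes. Its level was 83.3, 98.9 and 89.8 CPM in the fresh libraries and 60.6, 34.6 and 34 CPM in the preconditioned libraries. The log2 fold change of −1.07 ± 0.24 (SE, edgeR adjusted p = 0.0498) is at the edge of both cutoffs. The call was lost in 5 of 6 fits without 1 library (adjusted p up to 0.17) and with the replicate number as a block (edgeR adjusted p = 0.099). NFKBIZ, an inducible cofactor of NF-κB, rose from 82.5 ± 3.49 CPM (SD, n = 3) to a preconditioned mean of 138 ± 20.0 CPM, a log2 fold change of 0.74 (adjusted p = 0.037), below the fold cutoff. TNIP1 (0.06, adjusted p = 0.76), BIRC3 (0.04, adjusted p = 0.92) and CEBPD (−0.52, adjusted p = 0.054) gave log2 fold changes that did not pass the test. Of 11 tested genes that control decay or stability of cytokine transcripts, none passed both cutoffs in edgeR or DESeq2. Over all genes these shares were 2.29% and 7.78%. ZFP36L1 gave a log2 fold change of 0.26 (adjusted p = 0.21), ZC3H12A one of −0.0038 (adjusted p = 0.99) and MAPKAPK2 one of 0.01 (adjusted p = 0.98). DUSP1, a phosphatase that limits MAP kinase signalling, rose from 165 ± 28.5 to 297 ± 46.0 CPM (SD, n = 3 each, log2 fold change 0.85, adjusted p = 0.044).

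**Figure D5:**
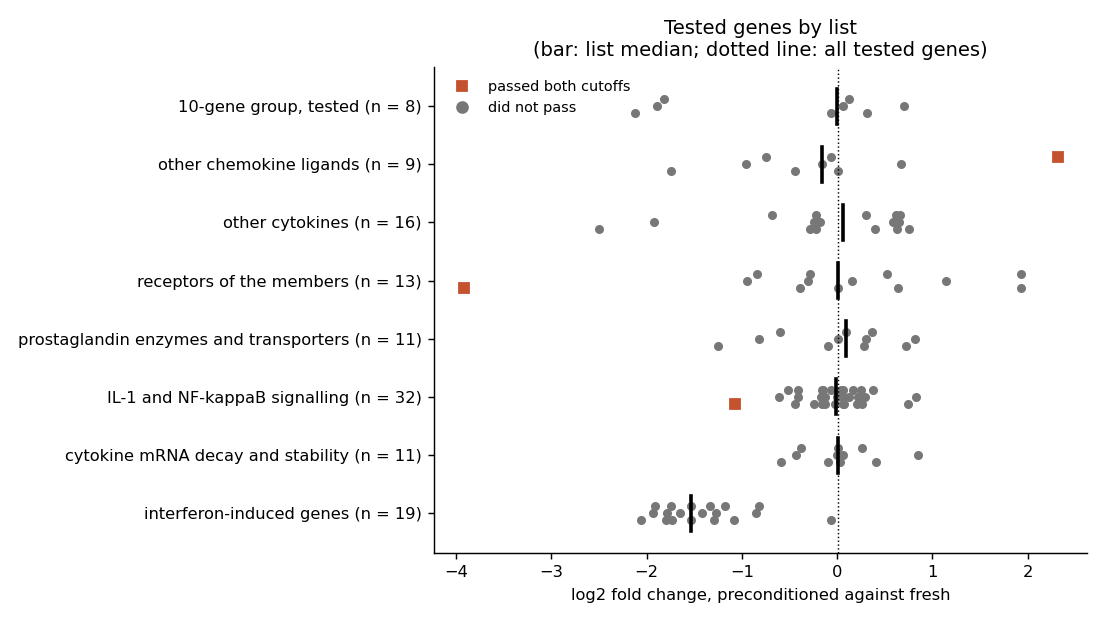
Log2 fold change of the preconditioned against the fresh group (horizontal axis) for the tested genes of the 10-gene group and of 7 surrounding lists, one point per gene, bars at list medians and a dotted line at the median of all tested genes. CCL27, CCR2 and NFKB1 are the genes past both cutoffs (squares), and the 19 interferon-induced genes lie to the left of 0 with a median of −1.53.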

How the data were processed

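The authors aligned RNA-seq reads with hisat2 and counted them with htseq-count, and the raw counts per gene were deposited without normalization. FPKM values were also deposited. In 16501 genes with counts in every library they equal the count divided by the library total and 1 length per gene. The genome build, annotation and strand setting are not given in the sources used here, so no coordinates are printed. Columns were assigned to samples by the library names in the sample records.

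Differential expression was tested on the counts with edgeR 4.0.16 under R 4.3.3 (filterByExpr, TMM, robust quasi-likelihood test), with the group as single factor. Adjustment by the Benjamini-Hochberg method covered all 15029 tested genes. Standard errors were derived from the F statistic, and intervals are 95%. To look for duplicate libraries, counts were compared within groups. No pair agreed within counting noise (chi-square per degree of freedom 48.1 to 147), so each library was counted as 1 sample. The depth of 31952352 to 34327534 counts limits only genes with few counts.

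The genes and lists were chosen with earlier results of these data known. Named list genes are those past both cutoffs and up to 4 more with the highest mean CPM, and genes named outside this rule are marked in the text, are those DESeq2 called, or are cell type markers, which were named after their values were seen. Marker lists of vascular endothelium (3 tested genes), melanocytes (2) and conjunctival epithelium (8) held no gene called by edgeR. Nor did those of corneal epithelium (10 tested) and leukocytes (13), and that of stromal fibroblasts (15 tested) held 1, COL1A1. Over all tested genes, edgeR called 2.29%. DESeq2 called 3 of 15 fibroblast, 1 of 13 leukocyte (CD68) and 1 of 2 melanocyte markers, against 7.78% of all genes with an adjusted p. The alternatives were DESeq2 1.42.0, other scalings and filters, limma-trend in limma 3.58.1 on log2(FPKM + 1) and log2(FPKM + 0.1), the replicate number as a block, no fold cutoff and leaving out each library. The fits were tested on simulated data, where DESeq2 made more false calls than edgeR. There DESeq2 also recovered a larger share of the changed genes at a log2 fold change of 2, and a similar share at 3. Whether the calls made here by DESeq2 alone are false was not tested.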

Additional observations from a re-analysis of the deposited data

How the results depend on the processing

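The finding that none of the 10 genes passed both cutoffs held under every alternative except the DESeq2 Wald test, where 1 passed (CCL2). The number over all genes moved from 344 to 1190 with DESeq2 and to 763 without a fold cutoff. With library size alone it was 565 (142 higher, 423 lower), since this scaling moved the median log2 fold change of all genes from 0.01 to −0.16, and with log2(FPKM + 0.1) it was 590 (141 higher, 449 lower). With log2(FPKM + 1), 77 genes were higher and 206 lower. Leaving out 1 library gave 14 to 1546 genes, with the highest number without preconditioned replicate 1. Genes of the surrounding lists moved from 3 to 7 without a fold cutoff, to 11 with DESeq2, and to 0 to 11 without 1 library. With the replicate number as a block, 30 genes passed over all genes, 0 of the lists and 0 of the 10 genes. Deviations from the group means were not shared by same-numbered libraries (correlations −0.067, −0.073 and −0.109 across genes). The labels do not say whether such libraries share an animal, and these correlations cannot decide it. The block is therefore given as an alternative only. The sign of small differences was not stable. CCL5, at 0.06, had −0.12 with library size alone, −0.041 with the block, −0.15 and −0.21 with the FPKM fits and −0.59 to 0.44 without 1 library. CSF1, at 0.12, had −0.050 with library size alone, −0.048 with log2(FPKM + 1) and −0.054 with log2(FPKM + 0.1). Without 1 library, CXCL8 had −0.31 to 1.01 (lowest without preconditioned replicate 2) and LIF −0.31 to 0.13. CXCL10, CCL2, IL6 and PTGS2 kept their sign under all 14 alternatives run. The causes were not tested.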

Other observations

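Some chemokine rows carry no chemokine symbol and are given here after their values were seen. LOC100354804, described as permeability factor 2, had 74.8, 113 and 146 CPM in the fresh libraries and 130, 147 and 130 CPM in the preconditioned libraries, with a log2 fold change of 0.29 ± 0.23 (SE, edgeR adjusted p = 0.43). PPBP, the precursor of a platelet chemokine, had 34, 31.8 and 57.8 CPM in the fresh libraries and 7.97, 138 and 31.4 CPM in the preconditioned libraries, with a log2 fold change of 0.52 ± 0.89 (SE, edgeR adjusted p = 0.72). LOC127483196, described as interleukin-8-like, had 3, 2 and 7 counts in the fresh libraries and 1, 33 and 56 counts in the preconditioned libraries and did not pass edgeR's filter. DESeq2 called it (log2 fold change 3.13, adjusted p = 0.042), as did the edgeR fit without preconditioned replicate 1 (adjusted p = 0.012). LOC103351517, described as C-C motif chemokine 7 like the gene CCL7, gave 1.58 on the log2 scale (adjusted p = 0.12 in edgeR and 0.024 in DESeq2, which called it). How the counting divided reads between such similar genes is not given in the sources used here.

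IL36G, an epithelial cytokine of the IL-1 family, had 44.8, 58.8 and 80.3 CPM in the fresh libraries and 23.1, 6.81 and 2.60 CPM in the preconditioned libraries. The groups did not overlap, and its log2 fold change of −2.50 had an adjusted p of 0.083 in edgeR's quasi-likelihood test and 0.027 in DESeq2. Leaving out 1 library at a time gave edgeR adjusted p values of 0.011 to 0.24, the lowest without preconditioned replicate 1.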
